A study of Mus musculus with 6 samples.

Results

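Keratin-associated proteins are the matrix proteins of the hair shaft, and this account follows their genes, named Krtap with a subfamily number and a member number, in mouse tail epidermis at 8 weeks and at 22 to 25 months of age. The members were all genes whose symbol begins with Krtap and a digit, reached through the RefSeq accession of a probe. RefSeq listed 56 such genes, a probe named 51 of them, and all 51 passed the detection filter, out of 14136 named genes tested. Krtap4-13, Krtap6-3, Krtap27-1, Krtap28-13 and Krtap29-1 had no probe and were not analysed here.

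The samples were 6 total RNA preparations of whole epidermis from C57BL/6 wild-type mice, hybridised singly with Cy3 dye to Agilent arrays after whole-transcriptome amplification. The young group had 3 arrays, each from 8-week-old animals. The aged group had 3 arrays, of which replicate 1 was from 22 months of age and replicates 2 and 3 were from 25 months. Epidermis was lifted from dermis with EDTA and was not sorted, so each array sums all epidermal and follicular cells that came away with the sheet. The labels do not say whether each array held 1 mouse or a pool, so the p-values measure the spread between these preparations. The Y-linked genes Ddx3y and Eif2s3y were well above background only on replicate 1 of each group, so the groups were alike in this respect.

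Hair shafts are built from keratin filaments embedded in a matrix of keratin-associated proteins, which are joined to the filaments and to each other by disulfide bonds. The proteins fall into high-sulfur, ultra-high-sulfur and high-glycine-tyrosine classes, and their genes are switched on in the differentiating cortex and cuticle of the growing follicle. Hoxc13, Foxn1, Msx2 and Lef1 are among the transcription factors of that tissue. In the mouse tail, hair-type keratins are also made outside follicles, in the scale regions of the interfollicular epidermis.

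Detection was similar across the arrays, though aged replicate 3 was the dimmest. Between 50.02% (aged replicate 3) and 54.38% (young replicate 1) of probes were well above background. The 75th percentile of signal lay between 230.2 (aged replicate 3) and 300.3 (aged replicate 1), and no spot was saturated. On aged replicate 3, 46 of the 51 members were well above background, against 50 on aged replicate 2 and 51 on each other array. Each value below is the log2 signal of a probe minus the log2 of its array's 75th percentile, so 0 is the level of that percentile. Arrays give no counting depth, and the 3 arrays per group limit the precision.

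Promoter sequences are shown for 4 members picked by their values, and no link between sequence and difference was tested. Krtap20-2 and Krtap3-3 differed little between the ages. Krtap22-2 had the smallest limma adjusted p of the family, and Krtap14 had the largest difference among members detected on every array. Each run is the 250 bases before the gene's start from RefSeq (GRCm38.p6), written 5′ to 3′ on the gene's strand. Capitals mark 2 of the words searched, on either strand: TATAAA, and the HOXC13 word described below.
Krtap20-2, chr16:89205611-89205860, plus strand: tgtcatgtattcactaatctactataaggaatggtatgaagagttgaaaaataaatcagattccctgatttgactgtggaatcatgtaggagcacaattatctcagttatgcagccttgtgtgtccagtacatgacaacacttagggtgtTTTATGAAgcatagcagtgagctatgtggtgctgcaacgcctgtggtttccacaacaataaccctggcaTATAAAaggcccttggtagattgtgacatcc
Krtap3-3, chr11:99550864-99551113, minus strand: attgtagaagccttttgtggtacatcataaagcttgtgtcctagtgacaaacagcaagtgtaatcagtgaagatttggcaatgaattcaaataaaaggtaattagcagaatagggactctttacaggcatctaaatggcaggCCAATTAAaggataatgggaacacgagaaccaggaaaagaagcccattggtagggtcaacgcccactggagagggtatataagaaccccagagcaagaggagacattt
Krtap22-2, chr16:89010760-89011009, minus strand: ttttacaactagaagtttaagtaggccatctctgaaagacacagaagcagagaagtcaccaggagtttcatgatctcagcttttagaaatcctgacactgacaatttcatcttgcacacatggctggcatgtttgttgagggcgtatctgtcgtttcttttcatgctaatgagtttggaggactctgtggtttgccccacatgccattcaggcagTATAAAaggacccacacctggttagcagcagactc
Krtap14, chr16:88826146-88826395, minus strand: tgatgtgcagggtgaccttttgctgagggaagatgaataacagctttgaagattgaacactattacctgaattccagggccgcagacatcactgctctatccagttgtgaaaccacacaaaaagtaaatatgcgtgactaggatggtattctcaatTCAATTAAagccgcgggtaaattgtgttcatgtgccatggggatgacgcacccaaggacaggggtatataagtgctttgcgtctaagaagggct

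Among the 46 tested members with a promoter in RefSeq, 37 (80.4%) held TATAAA on either strand, against 12.4% of all 32851 promoters of that length. A HOXC13 word, TTAATN or TTTATN followed by 2 purines, was present in 23 of these 46, against 17.2% of all promoters. It overlapped a TATAAA in 4 members, and counted apart from TATAAA it was present in 21 (45.7%), against 14.6%. The LEF1/TCF words CTTTGAT and CTTTGTT were found in 9 (19.6%), against 8.1%. Member promoters held 41.2% G and C, against 53.2% over all promoters, and these shares are not matched for base composition. A word match is a description of letters and not a binding site.

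Aged epidermis had lower values than young epidermis for 51 of 51 Krtap genes, while 44.4% of all 25068 features tested were lower. The median difference, aged minus young, was -2.68 on the log2 scale, against 0.04 over all features. Among the 46 members well above background on all 6 arrays, differences ran from -4.15 for Krtap14 to -0.16 for Krtap6-1. The other members, Krtap4-6, Krtap15, Krtap19-1, Krtap24-1 and Krtap31-2, were not well above background on 1 or more aged arrays, so the sizes of their differences are uncertain: Krtap31-2 stood at -4.56 here, at -1.98 with normexp background correction and at -3.004 without aged replicate 3. At least 4-fold lower values were found for 33 members (64.7%), against 1.44% of features, and 21 members were at least 8-fold lower, against 0.642%. These counts rested largely on aged replicate 3: without it, 13 members were at least 4-fold lower (1.08% of features) and 1 was at least 8-fold lower (0.215%), and the median difference was -1.68. In these whole-tissue preparations, fewer cells of a type and less RNA per cell cannot be told apart.

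None of the 51 members reached an adjusted p under 0.05 in limma's moderated test with Benjamini-Hochberg adjustment over all features, a threshold that 0.0359% of features passed as lower. The adjusted p values of the family ran from 0.0841 to 0.595. At an unadjusted p under 0.05, limma called 37 members lower (72.5%), against 8.54% of features. The groups did not overlap for 35 members (68.6%), with every aged array below every young array, against 10.1% of features. An exact permutation test of 3 against 3 cannot go below p = 0.1, so no single-gene version was run. The count of 37 fell to 13 without young replicate 1 (8.01% of features), to 12 without young replicate 3 (5.44%) and to 16 without aged replicate 2 (6.31%). Young replicate 3 shared a row of the slide with all aged arrays, while young replicates 1 and 2 lay in another row. With the slide row as a block, which compares within the shared row, limma called 12 members, against 4.06% of features, and the median difference was -3.02.

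The size of the difference varied greatly among the aged arrays. Relative to each gene's young mean, the median member stood at -0.82 on aged replicate 1, at -2.61 on aged replicate 2 and at -4.83 on aged replicate 3. On the young arrays the corresponding medians were 0.12, -0.34 and 0.20, so young replicate 2 was the lowest of its group. Aged replicate 2 was below every young array for all 51 members, aged replicate 3 for 45 and aged replicate 1 for 41. Aged replicate 1, the 22-month array, was the highest of the aged arrays for 41 members. The matching shares over all features were not computed, so these counts only describe the members. Across the 51 genes, the shortfall of young replicate 2 against the other young arrays and the difference between aged replicates 3 and 1 had a Pearson r of 0.59 and a Spearman rho of 0.63, a description over genes that share arrays and are not independent.

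The adjusted calls depended on which arrays were used. Without aged replicate 1, limma called 28 members lower at an adjusted p under 0.05, against 3.76% of features, and the median difference was -3.63, while without aged replicate 3 it called 0 (38 at an unadjusted p under 0.05, against 7.88% of features) and the median was -1.68. Leaving out replicate 1 of both groups, limma called 4 members (Krtap19-5, Krtap22-2, Krtap31-1 and Krtap31-2), against 0.882% of features. With arrays weighted by their agreement with their group, limma called 39 members, against 7.17% of features. The weights of aged replicates 1, 2 and 3 were 0.290, 2.73 and 0.538, and those of young replicates 1, 2 and 3 were 0.569, 1.80 and 2.30. Aged replicate 1 was also the only aged array with Y-linked transcripts, so the age of 22 months, sex and this single array cannot be told apart.

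**Figure D1:**
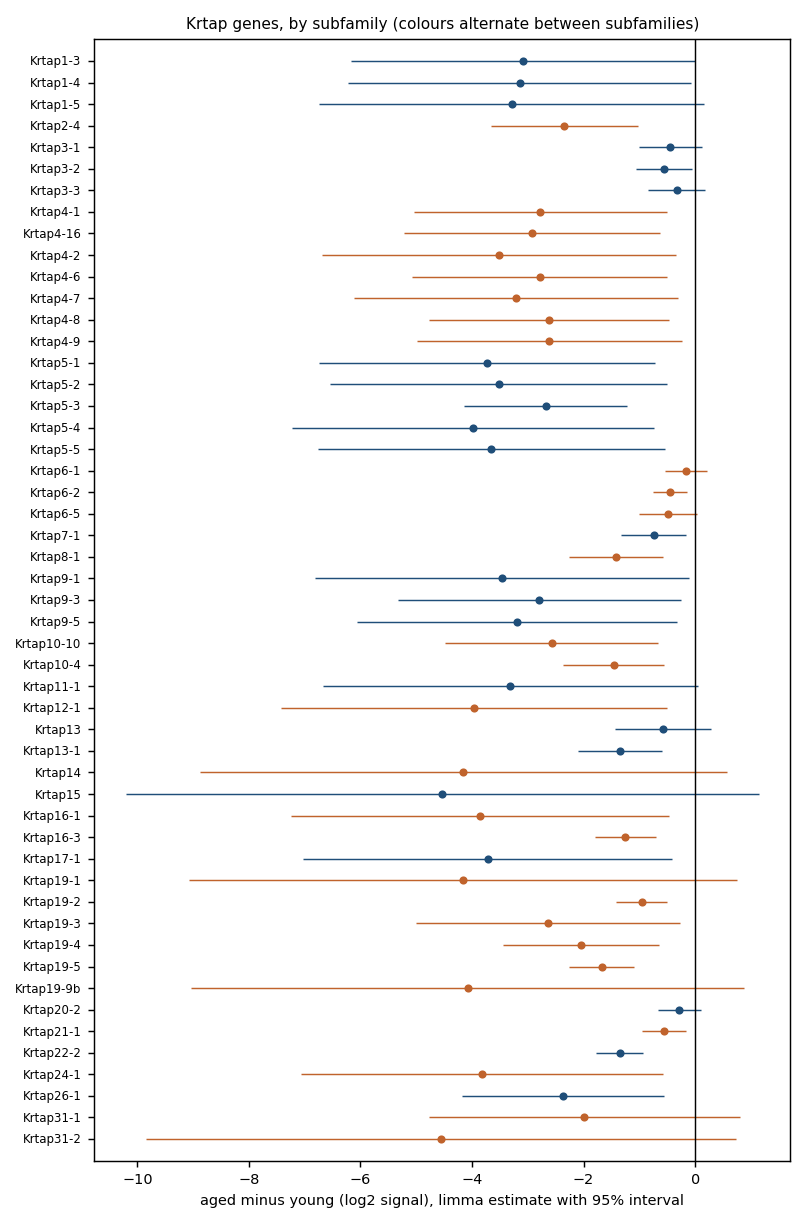
Difference in log2 signal, aged minus young, for each of the 51 Krtap genes with its 95% interval from limma, in order of subfamily number. All points lie below 0, from -0.16 for Krtap6-1 to -4.15 for Krtap14 among members detected on every array. Krtap4-6, Krtap15, Krtap19-1, Krtap24-1 and Krtap31-2 were not well above background on 1 or more aged arrays, and the wide intervals belong to members with large differences.

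The members fell into a larger set of 40 that were at least 2-fold lower and a smaller set of 11 that were under 2-fold lower, a division made after the values were seen and given without a test. The 11 were Krtap3-1, Krtap3-2, Krtap3-3, Krtap6-1, Krtap6-2, Krtap6-5, Krtap7-1, Krtap13, Krtap19-2, Krtap20-2 and Krtap21-1. Nearest to the boundary were Krtap19-2 at -0.96 inside the smaller set and Krtap16-3 at -1.25 outside it. The smaller set was bright: apart from Krtap3-2, Krtap7-1 and Krtap13, at 6.11 to 7.07, its young means were 8.06 to 9.87. In the larger set, only Krtap16-3 (8.97) and Krtap22-2 (8.41) reached that range. Whether signal level bears on the size of the difference was not tested. The median of the 40 was -0.90, -2.74 and -5.50 on aged replicates 1, 2 and 3. For the 11, the medians on the same arrays were -0.63, -0.68 and -0.05. Aged replicate 3 was thus the lowest array for most of the 40, below aged replicate 2 for 34 of them, while it was above aged replicate 2 for 10 of the 11.

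**Figure D2:**
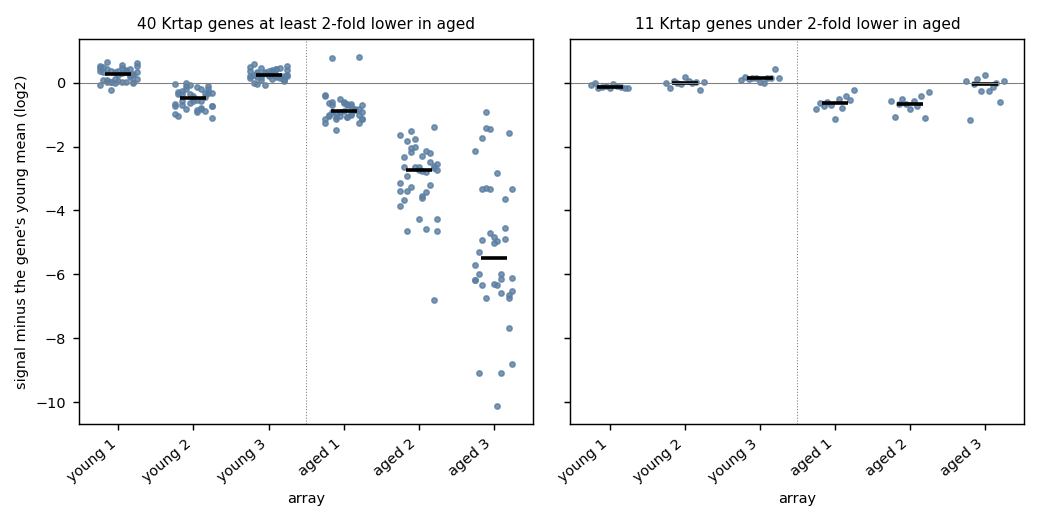
Log2 signal of each Krtap gene minus that gene's young mean on the 6 arrays, with 40 genes at least 2-fold lower on the left and 11 genes under 2-fold lower on the right. Points are genes and bars are medians. On aged replicate 3 the left-hand median is -5.50 and the right-hand median is -0.05.

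By subfamily number, the high-sulfur members were 17 genes of Krtap1, 2, 3, 10, 11, 12, 13, 14, 15, 24 and 26. All 17 were lower, with a median of -2.57. An unadjusted limma p under 0.05 was reached by 10, against 8.54% of features called lower. The Krtap3 genes, which encode small high-sulfur proteins of the hair cortex, stood at -0.33 to -0.56. Leaving those 3 genes out, the median of the other 14 was -3.12.

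Krtap3-1 read 8.84, 8.93 and 9.01 on the young arrays and 8.11, 8.35 and 8.99 on the aged arrays. Aged replicate 3 lay among the young values, and the difference was -0.44 ± 0.23 (SE, n = 3 per group; limma adjusted p = 0.364). Krtap3-3, whose promoter is shown above, read 8.16, 8.29 and 8.42 in young epidermis and 7.69, 7.79 and 8.39 in aged epidermis. Its groups overlapped through aged replicate 3 alone, with a difference of -0.33 ± 0.21 and a 95% interval from -0.84 to 0.18. For Krtap3-2 the groups did not overlap, at 6.14, 6.24 and 6.41 against 5.47, 5.53 and 6.12, and the difference was -0.56 ± 0.20 (limma adjusted p = 0.240). The subfamily as a whole thus had its highest aged values on the array where most other members had their lowest.

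The neighbouring Krtap1 genes, which also encode high-sulfur cortical proteins, differed by more. Krtap1-4 read 4.22, 3.33 and 4.12 in young epidermis and 3.21, 1.104 and -2.09 in aged epidermis, a difference of -3.15 ± 1.26 (8.86-fold lower; limma adjusted p = 0.265). Krtap1-3 and Krtap1-5 differed by -3.09 and -3.28. All 3 were lowest on aged replicate 3, and the groups overlapped only for Krtap1-3. Krtap2-4 varied less, at 3.42, 3.00 and 3.51 against 2.16, 0.75 and -0.03, with a difference of -2.35 ± 0.54 (limma adjusted p = 0.143).

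Krtap14 read 5.55, 4.50 and 5.61 on the young arrays and 4.31, 2.47 and -3.59 on the aged arrays. The groups did not overlap, but aged replicate 3 lay far below the others, and the difference of -4.15 ± 1.95 (limma adjusted p = 0.317) became -1.83 without that array. Krtap15 read 4.32, 2.86 and 4.12 in young epidermis and 3.07, 1.00 and -6.36 in aged epidermis, where aged replicate 3 was not well above background. Its difference, with that uncertain value, was -4.53 ± 2.33, and it was -2.99 with normexp background correction and -1.74 without that array. The groups overlapped. Krtap12-1 had a similar profile with all 6 arrays detected, at 6.03, 4.82 and 6.05 against 4.90, 1.06 and -0.95, a difference of -3.96 ± 1.43 (limma adjusted p = 0.237).

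Other high-sulfur members lay between these. Krtap11-1 differed by -3.32 ± 1.38 and Krtap24-1 by -3.82 ± 1.34, both with overlapping groups, and Krtap24-1 was not well above background on aged replicate 3. Krtap26-1 differed by -2.38 ± 0.74 and Krtap10-4 by -1.46 ± 0.37, both without overlap. Krtap13 and Krtap13-1 lie side by side, yet the first differed by -0.57 ± 0.36 and the second by -1.35 ± 0.31. On aged replicate 3 Krtap13 read 7.30, above all its young values of 6.89, 7.24 and 7.08, while Krtap13-1 read 6.47 against 7.41, 7.21 and 7.58.

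The ultra-high-sulfur members were the most uniform class. Its 16 genes, of Krtap4, 5, 9 and 17, were all at least 4-fold lower, from -2.61 to -3.98, against 1.44% of features. All 16 had an unadjusted limma p under 0.05, against 8.54% of features called lower. The groups did not overlap for 15 of them (10.1% of features), Krtap9-5 being the exception. Without aged replicate 3, 7 of the 16 were at least 4-fold lower (1.08% of features). In that setting 14 had an unadjusted limma p under 0.05 (7.88% of features), and the Krtap4 genes stood between -1.94 and -1.58. The class median was -0.998, -2.82 and -5.64 on aged replicates 1, 2 and 3.

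The 7 Krtap4 genes, whose proteins are rich in cysteine, differed by -2.61 to -3.51, and none overlapped. Krtap4-16 read 5.48, 5.14 and 5.55 in young epidermis and 4.47, 2.47 and 0.45 in aged epidermis, a difference of -2.92 ± 0.95 (7.59-fold lower; limma adjusted p = 0.212). Krtap4-6 was the dimmest, at -1.32, -1.79 and -0.997 against -2.26, -4.01 and -6.20, and it was not well above background on aged replicate 3, so its difference is uncertain (-1.02 with normexp background correction). The same order of arrays therefore appeared in a bright and a dim probe of the subfamily.

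The 5 Krtap5 genes, whose proteins belong to the hair cuticle, had a median of -3.65. Krtap5-4 read 5.04, 3.31 and 4.93 in young epidermis and 3.28, 0.16 and -2.09 in aged epidermis, with no overlap and a difference of -3.98 ± 1.34 (15.8-fold lower; limma adjusted p = 0.219). Young replicate 2 was only slightly above aged replicate 1. Krtap5-3 read 7.63, 6.44 and 7.74 against 5.80, 4.01 and 3.96, a difference of -2.68 ± 0.60 (limma adjusted p = 0.140). Krtap17-1, another ultra-high-sulfur gene, read 7.28, 6.35 and 7.12 against 6.30, 2.66 and 0.63, a difference of -3.72 ± 1.36 (limma adjusted p = 0.241). Krtap9-5 overlapped through young replicate 2 at 0.13, below aged replicate 1 at 0.56, and its difference was -3.19 ± 1.18.

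High-glycine-tyrosine members covered both small and large differences. The 14 genes, of Krtap6, 7, 8, 19, 20, 21 and 22, differed from -4.08 for Krtap19-9b to -0.16 for Krtap6-1 among those detected on every array, with a median of -1.16 over all 14. Krtap19-1 stood at -4.16 with aged replicate 3, where it was not well above background, and at -1.69 without it. Of the 14, 9 reached an unadjusted limma p under 0.05, against 8.54% of features called lower. The groups did not overlap for 11, against 10.1% of features. Leaving out Krtap19, the median of the other 8 was -0.52 and none was 4-fold lower.

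Krtap22-2 read 8.19, 8.39 and 8.66 on the young arrays and 7.28, 6.90 and 6.99 on the aged arrays. The aged arrays lay close together and well below the young, with a difference of -1.35 ± 0.17 (2.55-fold lower) and the smallest limma adjusted p of the family, 0.0841. Krtap19-5 was next, at 6.09, 6.11 and 6.32 against 4.92, 4.55 and 4.02, a difference of -1.68 ± 0.24 (3.20-fold lower; limma adjusted p = 0.0954). Both had moderate differences and small spread, whereas Krtap14 and Krtap19-9b, which had the largest differences among members detected on every array, had limma adjusted p values of 0.317 and 0.341.

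Krtap20-2, whose promoter is shown above, read 9.74, 9.88 and 10.00 in young epidermis and 9.45, 9.46 and 9.85 in aged epidermis. The groups overlapped, and the difference was -0.29 ± 0.16 (limma adjusted p = 0.379). It was the brightest member, with a signal of 271300 on young replicate 3 against a saturation value of 777873. Krtap6-1 read 8.08, 8.29 and 8.42 against 8.02, 7.97 and 8.31, and its difference of -0.16 had a 95% interval from -0.53 to 0.21. Krtap6-2 differed by -0.45 ± 0.13 and Krtap21-1 by -0.56 ± 0.16, both without overlap.

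Krtap19 held both kinds of member. Krtap19-2 read 9.10, 8.94 and 9.30 in young epidermis and 8.48, 8.02 and 7.95 in aged epidermis, a difference of -0.96 ± 0.18 without overlap (limma adjusted p = 0.119). Krtap19-9b read 6.85, 6.63 and 7.02 against 5.81, 4.70 and -2.25, a difference of -4.08 ± 2.04 (limma adjusted p = 0.341). Its large value rests mainly on aged replicate 3, whereas Krtap19-2 was similarly low on aged replicates 2 and 3. Krtap8-1 differed by -1.42 ± 0.35 and Krtap7-1 by -0.75 ± 0.24, also without overlap.

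Krtap16 and Krtap31, not placed in a class here, completed the family. Krtap16-3 read 8.96, 8.78 and 9.16 against 8.15, 7.59 and 7.39, a difference of -1.25 ± 0.23 without overlap (limma adjusted p = 0.114). Krtap16-1, which lies on another chromosome, differed by -3.86 ± 1.39. Krtap31-2 read 1.24, 0.65 and 1.01 in young epidermis and 1.77, -5.84 and -6.70 in aged epidermis, so aged replicate 1 was the highest of the 6 arrays and the other aged arrays were not well above background. Krtap31-1 was likewise highest on aged replicate 1, at 1.33.

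Along the chromosomes, the 11 members of the smaller set lay in a pair of stretches, apart from Krtap13 and Krtap19-2, as the plot of differences in gene order shows. On chromosome 11, the run began with Krtap3-3, Krtap3-2 and Krtap3-1, at -0.33 to -0.56, and went on with Krtap1, Krtap9, Krtap2 and Krtap4 genes, all below -2. On chromosome 16, Krtap16-3, Krtap22-2, Krtap6-1, Krtap6-5, Krtap20-2, Krtap21-1, Krtap6-2, Krtap8-1 and Krtap7-1 stood between -1.42 and -0.16. The genes at either side of that stretch were Krtap19-9b at -4.08 and Krtap11-1 at -3.32. Medians were -2.92 over the 21 chromosome 11 genes, -1.39 over the 22 chromosome 16 genes, -2.57 over the 3 chromosome 10 genes and -3.65 over the 5 chromosome 7 genes. Gene order is from RefSeq, and near-identical neighbours may share signal on a probe, so differences between close paralogs are uncertain.

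**Figure D3:**
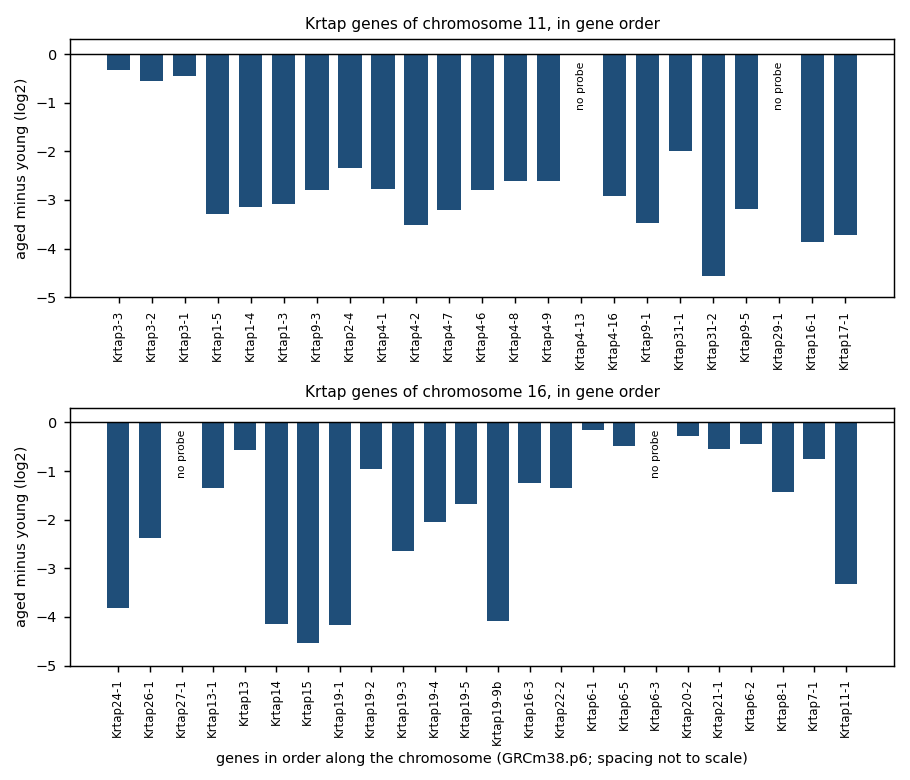
Difference in log2 signal, aged minus young, for Krtap genes in their order along chromosomes 11 and 16, with distances between genes not to scale. Chromosome 16 holds a stretch between -1.42 and -0.16, and chromosome 11 opens with 3 Krtap3 genes at -0.33 to -0.56.

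The promoter words were also counted in the smaller and the larger set. TATAAA was present in 8 of 10 (80.0%) of the smaller set with a promoter and in 29 of 36 (80.6%) of the larger, and the HOXC13 word in 6 (60.0%) and 17 (47.2%). The LEF1/TCF words were present in 1 (10.0%) and 8 (22.2%). No test was made, since the division was set by the values.

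Several probes were available for 7 members, and they agreed in direction. The 4 Krtap5-5 probes gave -3.89, -3.97, -3.65 and -0.87, the last from the dimmest of these probes. The 4 Krtap20-2 probes gave -1.02, -0.67, -0.35 and -0.29, the brightest giving the smallest difference. The Krtap5-2 probes gave -3.52 and -4.18. For Krtap4-16, Krtap11-1, Krtap19-5 and Krtap19-9b the probes differed by less than 0.5.

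Hair shaft keratins, the filament partners of these proteins, were lower for 13 of 13 genes tested, with a median of -3.52. An unadjusted limma p under 0.05 was reached by 8 of them, against 8.54% of features called lower. On aged replicates 1, 2 and 3 their medians were -0.69, -3.05 and -6.00, an order like that of the Krtap genes. Krt39, with the smallest limma adjusted p of the list (0.0892), read 0.05, 0.11 and 0.45 against -1.30, -1.20 and -0.84. It was thus lowest on aged replicate 1, unlike the list's medians. Krt35 read 7.19, 6.08 and 6.61 against 6.07, 1.34 and 0.63, without overlap. Of the hair-type keratins also made in tail scales, Krt31 and Krt35 differed by -3.37 ± 1.28 and -3.95 ± 1.40, while Krt36 and Krt84 differed by -0.05 ± 0.16 and -0.02 ± 0.14 with overlapping groups. Krt36 read 9.47, 9.68 and 9.91 on the aged arrays, so aged replicate 3 was not low there, as it was not for Krtap3 and Krtap6.

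Inner root sheath genes, which form the sheath that moulds the growing shaft, were lower for 10 of 11, with a median of -3.32. An unadjusted limma p under 0.05 was reached by 9 of them, against 8.54% of features called lower. Their medians on the aged arrays were -0.75, -3.08 and -5.87. Trichohyalin (Tchh), a sheath protein, read 7.40, 6.85 and 7.11 against 6.13, 4.04 and 1.23. The other shaft and cross-linking proteins were lower for 9 of 13, with a median of -0.73. Padi1, which converts arginine to citrulline in such proteins, differed by -1.89 ± 0.31 (limma adjusted p = 0.109).

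Among hair matrix regulators, 12 of 16 tested were lower, with a median of -0.39. At an unadjusted limma p under 0.05, 6 were lower, against 8.54% of features, and 1 was higher. Hoxc13, a homeobox factor of the hair matrix, read 3.53, 4.04 and 4.16 against 3.05, 3.45 and 4.06, a difference of -0.39 ± 0.30 with overlap. Foxn1 differed by -0.33 ± 0.16, also with overlap. Lef1, a Wnt effector, read 2.16, 1.37 and 1.56 against 1.41, -1.70 and -2.17, a difference of -2.52 ± 0.93 with overlap through aged replicate 1. Msx2 differed by -1.15 ± 0.40, and neither Lef1 nor Msx2 passed the adjusted threshold in limma (0.243 and 0.227).

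**Figure D4:**
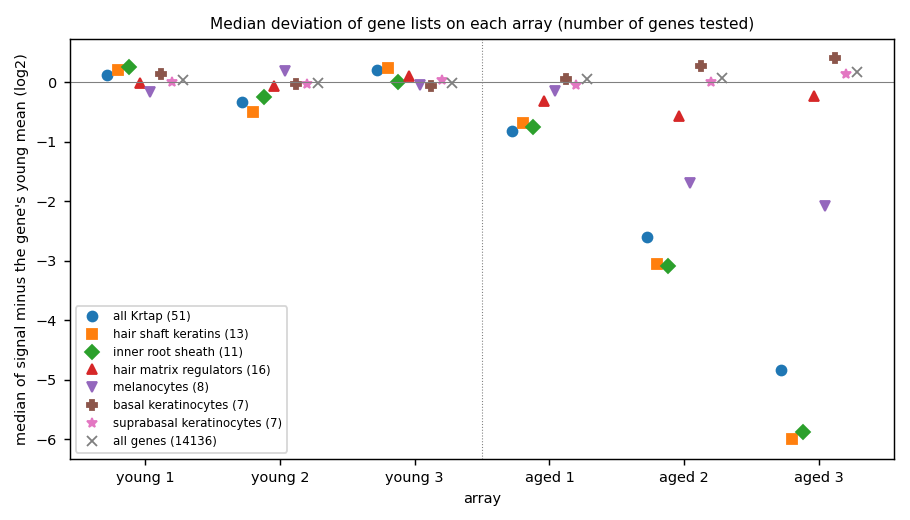
Median log2 signal, relative to each gene's young mean, of the Krtap family and other gene lists on the 6 arrays. Krtap genes, hair shaft keratins and inner root sheath genes reach -4.83, -6.00 and -5.87 on aged replicate 3. Basal and suprabasal keratinocyte genes stand at 0.40 and 0.13 on that array.

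The tissue label was borne out by keratinocyte genes: all 7 basal and 7 suprabasal genes with a probe were tested, with medians of 0.26 and 0.02. Melanocyte genes, which mark pigment cells, were lower for 8 of 8, with 5 at an unadjusted limma p under 0.05, against 8.54% of features. Their summed level was 3.95 to 4.28 in young and 2.38 to 3.81 in aged epidermis. Whether these pigment cells lay in follicles was not tested. Outer root sheath and follicle stem cell genes were lower for 10 of 11, 3 at an unadjusted limma p under 0.05 (8.54% of features). Their median was -0.67, with aged medians of -0.09, -0.55 and -1.38, the order of the Krtap genes on the aged arrays only. On the young arrays their medians were 0.03, 0.18 and -0.24, with replicate 2 the highest, where the Krtap genes were lowest. Fibroblast genes summed to 2.64 to 3.20 and to 1.56 to 4.41, 4 of 5 tested being lower, and Lum and Pdgfra stayed at background on all 6 arrays. Col1a1, a fibrillar collagen gene well above background on only 2 aged arrays, fell 7.72-fold, an uncertain size (limma adjusted p = 0.0283). Col3a1, another, fell at least 5.14-fold, the bound set by its lack of signal well above background on the aged arrays (limma adjusted p = 0.0467). With the replicate number as a block, neither call was made by limma. Of 8 dermal papilla genes 3 were tested and 0 were lower, and Sox18, Rspo3, Fgf7 and Fgf10 stayed at background throughout. Langerhans cell genes were lower for 4 of 5, with aged medians of -3.83, -1.03 and 0.02, an array order opposite to that of the Krtap genes. T cell genes were lower for 1 of 3, Cd3g, which was well above background on only 3 arrays, and Cd3d stayed at background throughout. Thy1 was higher in aged epidermis by 1.60 ± 0.47 without overlap (limma adjusted p = 0.192). The part of these cell types in the Krtap differences was not tested.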

How the data were processed

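Agilent Feature Extraction 11.5.1.1 made the deposited scanner files, per the file headers, and their processed signal is an intensity on a linear scale, background-subtracted. The deposited table of the authors holds log2 values that matched these signals after scaling and centring each probe, and was used as an alternative scale check only. Probe flags are other columns of the deposited files, per the file headers. No depth exists for arrays.

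Here log2 processed signal minus each array's 75th percentile over non-control spots was computed, outlier spots (116 to 170 per array) were left out, and probes well above background on at least 3 of 6 arrays were kept, the brightest per gene. Among 55681 probes, 28331 were named through RefSeq accessions. limma 3.58.1 in R 4.3.3 fitted young against aged over 25068 features, with Benjamini-Hochberg adjustment, and was tested on simulated data.

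The members and gene lists were chosen with earlier results of these data known. Named members were the smallest p of each subfamily, the 3 brightest, the 4 largest and 4 smallest differences. From the other lists the rule took up to 3 genes by p, not all of them shown, and Hoxc13, Foxn1, Msx2 and Lef1. Neighbours, members just beside a boundary and other examples were chosen after their values were seen. Protein classes follow subfamily numbers as textbooks give them, because a class rule based on protein sequence was not used here.

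The main fit was unpaired, and the replicate number was used as a block only as an alternative. Deviations of same-numbered arrays had correlations of 0.414, 0.259 and 0.102 over features. A pairing by number is uncertain, since young replicate 2 correlated at 0.286 with aged replicate 3 and young replicate 3 at 0.095 with aged replicate 2. Alternatives were other scalings, background correction, detection filters, array weights, slide row and replicate number as blocks, the mean of probes, and each array left out in turn.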

Additional observations from a re-analysis of the deposited data

How the results depend on the processing

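All tested members were lower under every setting tried. With the replicate block, limma's adjusted count of members stayed at 0 and its unadjusted count was 39 (10.1% of features), against 37 unpaired (8.54%), while its count of genes over the whole array went from 11 to 0 (2710 at an unadjusted p under 0.05). Members called lower by limma at an adjusted p under 0.05 numbered 39 with array weights (7.17% of features) and 4 leaving out replicate 1 of both groups (0.882%). With 1 array left out they numbered 0 to 28, the 28 without aged replicate 1 (3.76%). Members at an unadjusted p under 0.05 numbered 12 with slide row as a block, which rests on 1 young array (4.06% of features), and 12 to 44 with 1 array left out (5.44% to 11.2%). The family median ran from -3.63 to -1.68 over all settings, the latter without aged replicate 3. Genes called over the whole array numbered 7 with quantile scaling, 21 with median scaling, 3 with detection on all 6 arrays, 1 without a filter, 1887 with array weights, 0 with the slide row block (858 unadjusted), 215 leaving out replicate 1 of both groups, and 0 to 809 with 1 array left out. Subfamily medians moved beyond the spread between replicates for Krtap20 with the mean of probes (-0.58), Krtap22 with slide row (-1.60) and leaving out replicate 1 of both groups (-1.58), and Krtap7 with slide row (-1.16). The causes were not tested. The number of arrays and the dim signal of 5 members on 1 or more aged arrays limit precision.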
